A study of Mus musculus with 9 samples.

Results

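Cadherins and protocadherins are single-pass membrane proteins that join neighbouring cells through calcium-dependent extracellular repeats. They were taken here as the protein-coding genes whose symbol is Cdh followed by a number or begins with Pcdh, without Cdh2 (N-cadherin) and Cdh15 (M-cadherin), which left 90 of the 52780 genes in the deposited table. Among them were 21 Cdh genes, 12 protocadherin genes that stand alone in the genome and 57 protocadherin genes of the alpha, beta and gamma clusters. Counts were high enough to test 55 of the 90. The most counts that any of the other 35 reached in a sample were 16, and 7 of them had no count in any sample. Pcdha11 is the symbol of 2 gene identifiers, and both were kept.

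Classical cadherins bind catenins with their cytoplasmic tails and so connect cell contacts to actin. Type I members carry the adhesion of epithelia and many other tissues, while type II members are found mainly in mesenchyme, vessels and the nervous system. Delta protocadherins are a smaller adhesive branch best known from the developing brain. In the clustered protocadherins, each variable exon has its own promoter, and in the alpha and gamma clusters it is spliced to constant exons that all members of the cluster share. In differentiating muscle, N-cadherin and M-cadherin are the cadherins usually studied, since they bring myoblasts into contact before they fuse.

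The cells were C2C12, an immortal mouse myoblast line that fuses into myotubes when serum is lowered, collected at day 4 of differentiation. The study asked how the splice isoforms of the histone variant macroH2A1, macroH2A1.1 and macroH2A1.2, affect gene expression in myotubes. WT, si mH2A1.1 and si mH2A1.2 had 3 samples each. Both knockdowns received siRNA against the named isoform at 10 nM, repeatedly, before and during differentiation. The study lists a scrambled control siRNA and names si Ctrl cells in other experiments. The control samples here are labelled wild type, and whether they received a control siRNA is not stated for these libraries. If they did not, knockdown and transfection cannot be told apart against WT. All samples come from the same cell line. A myotube culture also holds unfused cells, and in bulk RNA fewer cells of a type and less RNA per cell cannot be told apart.

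Totals ranged from 36924252 to 42223108 counts per sample, so that 3 counts corresponded to 0.0691 to 0.0826 CPM (counts of a gene per 1000000 counts of the sample, with totals scaled by TMM). H2afy, which encodes both isoforms, had 59.9 ± 3.18 CPM in WT, 33.3 ± 4.87 in si mH2A1.1 and 45.7 ± 2.20 in si mH2A1.2 (SD, n = 3 each). It fell by 0.85 on the log2 scale with si mH2A1.1 (edgeR adjusted p = 0.0033), while its value with si mH2A1.2 was -0.39 (adjusted p = 0.108). Gene counts sum both isoforms and so do not measure either one alone. At the protein level, the study reports from immunoblots of C2C12 cells that each knockdown was specific for its isoform. The source label is myoblast, but 8 myotube markers, among them titin and embryonic myosin, summed to 23589 ± 4746 CPM in WT, 19091 ± 1894 in si mH2A1.1 and 18616 ± 2419 in si mH2A1.2. The 4 epithelial markers summed to at most 0.346 CPM in any sample, with Krt18 at 0 throughout, and the 4 endothelial markers summed to at most 2.57 CPM. The 4 neuron markers summed to 39.6 to 84.8 CPM in WT, 59.0 to 87.0 in si mH2A1.1 and 20.9 to 54.6 in si mH2A1.2. None of the 3 neuron markers tested was called in any comparison.

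Per length, the gamma cluster gene Pcdhgc3 had the highest mean level, at 59.1 RPKM (CPM per kilobase of merged exons, mean of the 9 samples), and 40.7 RPKM in si mH2A1.1. Cdh13 (T-cadherin), which is held in the membrane by a lipid anchor and lacks a catenin-binding tail, followed at 27.8 RPKM and at 28.2 RPKM in si mH2A1.1, where the samples of both genes overlapped. The delta protocadherins Pcdh1 and Pcdh19 had 13.04 and 10.5 RPKM. Cdh18 had 8.37 RPKM, Pcdh7 7.87, Pcdhgc4 5.26, Cdh11 4.11, Pcdh18 3.61 and Pcdhb17 3.56. From Pcdh1 down, neighbours in this order overlapped in their ranges over the 9 samples. Cdh11 had the largest fold changes of the tested members in all 3 comparisons, from 2.71 RPKM in WT to 0.708 in si mH2A1.1 and 8.91 in si mH2A1.2. Of the 90 genes, 30 had a mean of at least 1 CPM. The canonical epithelial cadherin Cdh1 had 0.600 to 1.16 CPM over the 9 samples and the endothelial cadherin Cdh5 had 0 to 0.692 CPM.

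**Figure D1:**
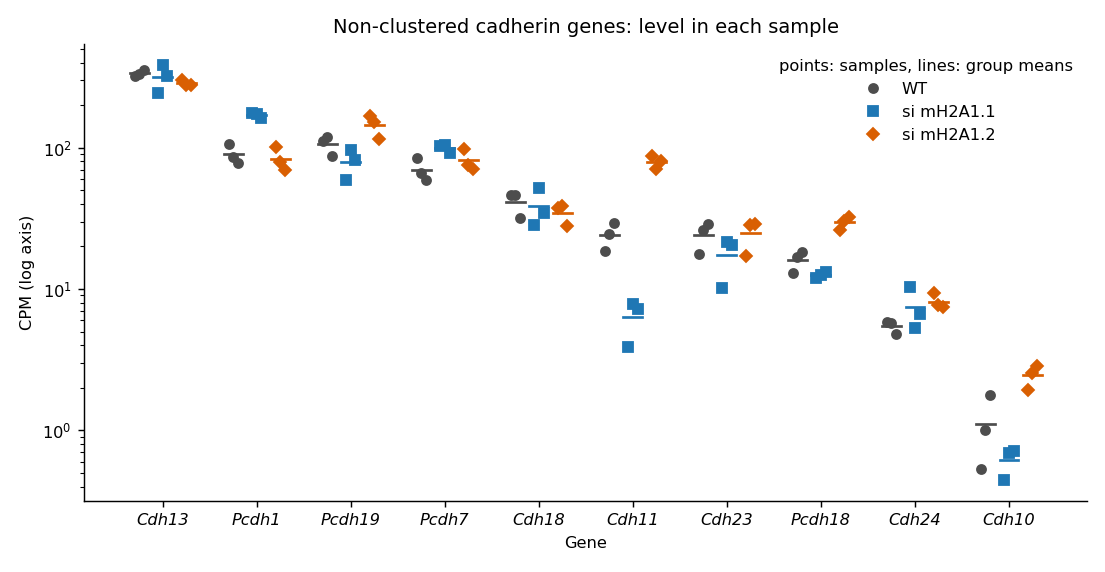
Level of the 10 Cdh and non-clustered protocadherin genes with a mean of at least 1 CPM. The y axis gives CPM on a log axis, points are samples, short lines are group means, grey circles are WT, blue squares si mH2A1.1 and orange diamonds si mH2A1.2. Cdh11 is the gene whose 3 groups lie farthest apart, from 3.88 to 7.88 CPM in si mH2A1.1 up to 70.6 to 87.5 CPM in si mH2A1.2.

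The first comparison asked which of these genes differed between si mH2A1.1 and WT. With si mH2A1.1, 3 of the 55 tested genes passed an adjusted p of 0.05 or less, against 11.1% of all 19545 tested genes. Pcdh1 rose (6.18% of all tested genes rose), and Cdh11 and Pcdhgc3 fell (4.93% fell). The median log2 fold change of the 55 genes was 0.06, beside -0.01 over all tested genes, and turned to -0.06 without si mH2A1.1 replicate 2 and -0.02 without WT replicate 2. It was 0.19 without si mH2A1.1 replicate 1. Of the 55, 12 had an unadjusted p below 0.05, beside 5789 of all 19545 tested genes. With si mH2A1.2, 2 of 55 passed, against 2.35% of all tested genes. Cdh11 and Pcdh18 rose (1.37% of all tested genes rose) and no member fell (0.982% fell). Of the 55, 15 had an unadjusted p below 0.05, beside 3109 of all 19545 tested genes. Here 40 of the 55 log2 fold changes were positive, as against 50% over all tested genes, and their median was 0.30. Without si mH2A1.2 replicate 1 that median was 0.11.

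Between the knockdowns, 10 of 55 passed, against 22.5% of all tested genes. Pcdh1, Pcdhga4 and Pcdhga5 were higher with si mH2A1.1 (12.0% of all tested genes were higher), and Cdh10, Cdh11, Pcdh18, Pcdh19, Pcdhb3, Pcdhb11 and Pcdhgc3 were lower (10.5% were lower). The median log2 fold change was -0.23 with all samples and 0.05 without si mH2A1.2 replicate 1. The 3 comparisons share samples, so their values are given side by side and are not independent of each other. The called share of the 55 was 5.45%, 3.64% and 18.2% in the order given, near or below that of all tested genes. Under a stricter rule, an adjusted p below 0.01 with a change of at least 0.8 in log2 units, 2, 0 and 5 members passed, against 1.80%, 0.179% and 6.38% of all tested genes.

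**Figure D2:**
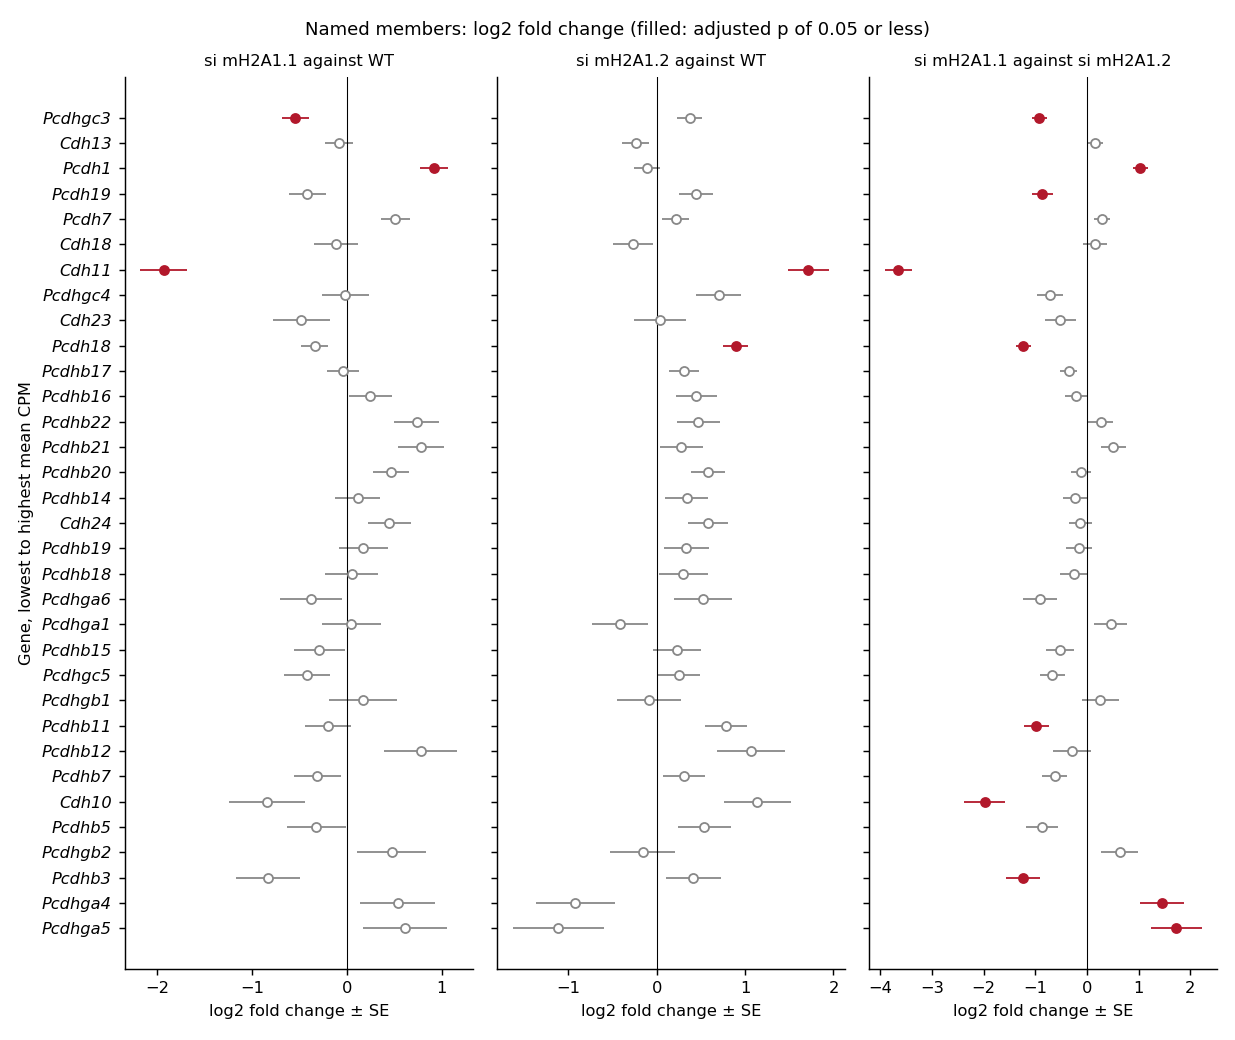
Log2 fold change of the 33 members that were called or had a mean of at least 1 CPM, in the 3 comparisons (x axis, ± SE derived from the edgeR F statistic, each panel with its own scale), ordered by mean CPM. Filled red points had an adjusted p of 0.05 or less. Cdh11 is the only gene filled in all 3 panels.

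Cdh11, or OB-cadherin, is a type II cadherin of mesenchymal cells first known from osteoblasts. It lies on the minus strand of chromosome 8 (chr8:102632095-102785642, GRCm38). In WT it had 18.7, 24.4 and 29.3 CPM. In si mH2A1.1 it had 3.88, 7.88 and 7.16 CPM. In si mH2A1.2 it had 87.5, 70.6 and 80.0 CPM. No sample of a group overlapped another group, with si mH2A1.1 lowest and si mH2A1.2 highest. It fell by 1.93 on the log2 scale with si mH2A1.1 (SE 0.25, edgeR adjusted p = 0.0029) and rose by 1.72 with si mH2A1.2 (SE 0.24, adjusted p = 0.0106). Directly, the level in si mH2A1.1 was 12.6-fold lower than in si mH2A1.2 (log2 fold change -3.65, SE 0.26, adjusted p = 9.92e-05). All 17 alternative fits called it in each comparison at an adjusted p of 0.05, with adjusted p of at most 0.0146, 0.0421 and 0.000899 in the same order. Of its 50-base stretches, 97.9% occur in no other annotated transcript.

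Markers of cell types known for Cdh11 were read beside it. The 4 osteoblast markers summed to 39.3 to 66.4 CPM in WT, 24.7 to 29.4 in si mH2A1.1 and 43.1 to 74.7 in si mH2A1.2, nearly all of it Runx2, which fell with si mH2A1.1. Their defining genes Bglap, Sp7 and Alpl stayed below 1 CPM on average in every group. The 4 fibroblast markers summed to 306 to 404 CPM in WT, 234 to 486 in si mH2A1.1 and 535 to 559 in si mH2A1.2, mostly decorin. Of these only Lum was called, lower with si mH2A1.1. Their part in the Cdh11 result was not tested.

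Among the other type II genes, Cdh10 had 0.535, 1.01 and 1.78 CPM in WT. It had 0.445, 0.692 and 0.714 CPM in si mH2A1.1 and 1.93, 2.56 and 2.85 CPM in si mH2A1.2. The si mH2A1.2 samples lay above all others, and WT and si mH2A1.1 overlapped. It was lower in si mH2A1.1 than in si mH2A1.2 (log2 fold change -1.98, SE 0.40, edgeR adjusted p = 0.0071). Against WT the value with si mH2A1.2 was 1.14 (SE 0.38, adjusted p = 0.167), and with the replicate number as a block it was called (1.23, adjusted p = 0.035). The range of this adjusted p over all alternatives was 0.035 to 0.342. Cdh18, a neuronal type II cadherin that is well expressed here, had 46.3, 46.4 and 31.9 CPM in WT, 28.4, 52.0 and 34.7 in si mH2A1.1 and 37.2, 38.7 and 27.7 in si mH2A1.2. These ranges overlap, and it was not called in any comparison. Cdh24 was between 4.77 and 10.3 CPM and was also not called.

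Neither of the atypical genes with at least 1 CPM was called by edgeR without a block. Cdh13 had 321, 330 and 357 CPM in WT, 245, 386 and 320 in si mH2A1.1 and 300, 278 and 276 in si mH2A1.2. Its si mH2A1.2 samples lay below WT by less than the test could call (adjusted p = 0.48). Cdh23, known from the tip links of hair cells, had 17.6, 26.0 and 29.0 CPM in WT, 10.2, 21.4 and 20.5 in si mH2A1.1 and 17.0, 28.5 and 28.9 in si mH2A1.2. Within each group its replicate 1 was the lowest. With the replicate number as a block, Cdh23 was called lower in si mH2A1.1 than in WT (adjusted p = 0.0134) and than in si mH2A1.2 (adjusted p = 0.0069).

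Of the 9 delta protocadherins, 4 were tested. Between the knockdowns Pcdh1, Pcdh18 and Pcdh19 were called, 75% of these 4 genes against 22.5% of all tested genes. Pcdh1, also known from airway epithelium, had 106, 86.2 and 77.8 CPM in WT. It had 175, 174 and 163 CPM in si mH2A1.1 and 101, 79.0 and 69.9 CPM in si mH2A1.2. The si mH2A1.1 samples lay above all others. It rose by 0.92 on the log2 scale with si mH2A1.1 (SE 0.15, edgeR adjusted p = 0.0067) and was 1.03 higher than in si mH2A1.2 (SE 0.15, adjusted p = 0.0016). Against WT, si mH2A1.2 gave -0.11 (SE 0.15, adjusted p = 0.787).

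Pcdh18 had 12.9, 16.8 and 18.2 CPM in WT, 12.0, 12.6 and 13.1 in si mH2A1.1 and 26.3, 30.3 and 32.3 in si mH2A1.2. The si mH2A1.2 samples lay above all others, and WT and si mH2A1.1 overlapped by the lowest WT sample. It rose by 0.89 with si mH2A1.2 (SE 0.14, edgeR adjusted p = 0.0166), a call lost without WT replicate 1 (0.76, adjusted p = 0.0513) or si mH2A1.2 replicate 2 (0.87, adjusted p = 0.0665) and kept in 15 of 17 alternatives, with adjusted p from 2.93e-06 to 0.0665. With si mH2A1.1 the value was -0.34 (SE 0.14, adjusted p = 0.138). Directly it was 1.23 lower in si mH2A1.1 on the log2 scale (log2 fold change -1.23, SE 0.14, adjusted p = 0.00051).

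Pcdh19, an X-linked gene known from a form of epilepsy, had 111, 120 and 87.3 CPM in WT. It had 59.3, 97.0 and 82.3 CPM in si mH2A1.1 and 167, 152 and 116 CPM in si mH2A1.2. Both knockdowns overlapped WT but not each other. The direct log2 fold change was -0.86 (SE 0.20, edgeR adjusted p = 0.0126), while against WT it was -0.42 with si mH2A1.1 (adjusted p = 0.185) and 0.45 with si mH2A1.2 (adjusted p = 0.298).

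Pcdh7 had 84.1, 66.2 and 59.1 CPM in WT, 102, 104 and 92.2 in si mH2A1.1 and 97.6, 75.8 and 70.1 in si mH2A1.2. All si mH2A1.1 samples were above WT, with a log2 fold change of 0.51 that narrowly missed the threshold (SE 0.15, edgeR adjusted p = 0.0571). It passed in 5 of 17 alternatives, and adjusted p ranged from 0.0077 to 0.176. Only 79.6% of its 50-base stretches are its own. The other 5 delta genes were untested, with at most 0.135 CPM on average.

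For 3 of the called genes the sequence before the start site was read from RefSeq (GRCm38.p6), which held an entry for 21 of the 90 members. Only these 3 of the 10 called members, Pcdh18, Pcdh19 and Cdh10, had an entry, and direction played no part in the choice. All 3 were lower in si mH2A1.1 than in si mH2A1.2, as were Cdh11, Pcdhgc3, Pcdhb3 and Pcdhb11, which had no entry. The window is the 250 bases before the start, 5′ to 3′ on the gene's strand, with capitals at each E-box, the letters CANNTG, which reads the same on both strands and includes the sites of muscle basic helix-loop-helix factors. The windows are chr3:49757317-49757566 (minus strand) for Pcdh18, chrX:133688994-133689243 (minus strand) for Pcdh19 and chr15:18820079-18820328 (plus strand) for Cdh10. The last lies in the first intron of longer Cdh10 transcripts.
Pcdh18: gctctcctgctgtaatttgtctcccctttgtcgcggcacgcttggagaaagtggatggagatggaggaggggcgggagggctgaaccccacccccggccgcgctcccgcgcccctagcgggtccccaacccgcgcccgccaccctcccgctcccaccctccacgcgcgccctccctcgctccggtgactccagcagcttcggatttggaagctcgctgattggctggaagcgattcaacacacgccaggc
Pcdh19: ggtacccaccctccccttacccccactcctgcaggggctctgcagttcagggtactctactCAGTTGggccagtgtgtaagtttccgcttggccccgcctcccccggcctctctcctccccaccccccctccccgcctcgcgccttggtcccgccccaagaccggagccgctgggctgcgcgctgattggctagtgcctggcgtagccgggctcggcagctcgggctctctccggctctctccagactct
Cdh10: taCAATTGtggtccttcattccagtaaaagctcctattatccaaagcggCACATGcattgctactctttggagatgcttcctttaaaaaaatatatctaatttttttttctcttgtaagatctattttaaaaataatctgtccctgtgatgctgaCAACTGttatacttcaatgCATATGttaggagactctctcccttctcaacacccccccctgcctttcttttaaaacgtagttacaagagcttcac

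These windows differ in composition. Pcdh18 and Pcdh19 are 68.0% and 69.2% GC, above the median of 52.4% over the 32851 promoters of the table, and Cdh10 is 36.8% GC. Pcdh18 holds no E-box, Pcdh19 holds 1, beginning 189 bases before the start, and Cdh10 holds 4, beginning 248, 201, 95 and 76 bases before it. At least 1 E-box is found in 66.2% of all promoters of the table and in 11 of the 21 members with an entry. Neither CAGCTG, an E-box form present in 13% of all promoters, nor CTA and TAG set 4 bases apart, the outline of a MEF2 site, present in 3.2%, occur in the 3 windows. A match is a description of the letters and not of a bound site.

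The protocadherin clusters lie side by side on the plus strand of chromosome 18, with alpha at chr18:36930184-37187661, beta at chr18:37264938-37524479 and gamma at chr18:37661793-37841873 (GRCm38). The gamma cluster dominated, with summed levels of 354, 380 and 376 CPM in WT. Its sums were 226, 323 and 250 CPM in si mH2A1.1 and 517, 477 and 451 CPM in si mH2A1.2. The groups did not overlap, with si mH2A1.1 lowest and si mH2A1.2 highest, at 0.719 and 1.30 times the WT mean. The sums are a description and were not tested. They are free of how shared reads were divided among the gamma members, but not of the division with non-member genes at the locus, with which 65.1% of the 50-base stretches of Pcdhgc3 are shared.

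**Figure D3:**
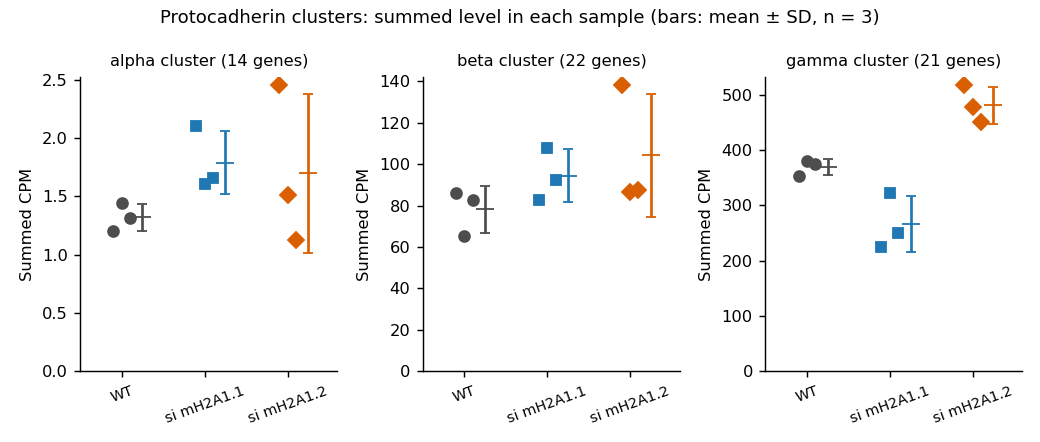
Summed CPM of all alpha, beta and gamma protocadherin genes in each sample (y axes begin at 0), with the mean ± SD of each group at the right of its points (n = 3). In the gamma panel the 3 groups do not overlap, and in the beta panel si mH2A1.2 replicate 1 stands above all other samples at 138 CPM.

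Pcdhgc3 held most of the gamma reads, 88.4% in WT, 84.2% in si mH2A1.1 and 87.9% in si mH2A1.2. It is 1 of 3 C-type genes at the end of the cluster. It had 310, 344 and 327 CPM in WT, 181, 275 and 216 in si mH2A1.1 and 443, 421 and 406 in si mH2A1.2. No group overlapped another. It fell by 0.55 with si mH2A1.1 (SE 0.14, edgeR adjusted p = 0.0356) and was lower than in si mH2A1.2 (log2 fold change -0.92, SE 0.14, adjusted p = 0.0021). Against WT the value with si mH2A1.2 was 0.37 (SE 0.14, adjusted p = 0.225). The fall with si mH2A1.1 was called in 10 of 17 alternatives, with adjusted p from 0.0048 to 0.119. It was lost in edgeR with only the samples of the 2 groups compared (-0.55, adjusted p = 0.0576). It was also lost without WT replicate 1, 2 or 3, si mH2A1.1 replicate 1 or 3 or si mH2A1.2 replicate 2, where it was -0.41 to -0.59. Of the 50-base stretches of Pcdhgc3, 34.8% occur in no other gene, so its level rests in part on how Salmon divided shared reads.

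The remaining 20 gamma genes summed to 43.0 ± 6.41 CPM in WT, 42.2 ± 7.40 in si mH2A1.1 and 58.5 ± 15.0 in si mH2A1.2 (SD, n = 3 each), which overlapped. Pcdhgc4 had 23.2, 19.1 and 31.1 CPM in WT, 30.6, 23.7 and 18.1 in si mH2A1.1 and 50.8, 39.3 and 29.0 in si mH2A1.2, and was not called by edgeR in any comparison (adjusted p = 0.0633 between the knockdowns). It was called lower in si mH2A1.1 than in si mH2A1.2 by DESeq2, with no filter on low counts, with the replicate block (adjusted p = 0.0496) and without si mH2A1.2 replicate 3. Of the 16 tested gamma genes, 18.75% were called between the knockdowns, against 22.5% of all tested genes. Pcdhga4 and Pcdhga5, both near the limit of this depth, were the clustered genes called higher in si mH2A1.1 than in si mH2A1.2 with all samples. Without si mH2A1.2 replicate 1, Pcdhb21 and Pcdhb22 were also called higher. Pcdhga4 had 24, 11 and 17 counts in WT, 23, 25 and 35 in si mH2A1.1 and 7, 15 and 5 in si mH2A1.2. Its direct log2 fold change was 1.46 (SE 0.43, edgeR adjusted p = 0.0359). Pcdhga5 had 11, 9 and 18 counts in WT, 17, 17 and 30 in si mH2A1.1 and 9, 6 and 2 in si mH2A1.2. Its direct log2 fold change was 1.73 (SE 0.49, adjusted p = 0.0308). In both genes the knockdowns overlapped WT but not each other. The calls of these genes held in 11 and 13 of 17 alternatives, with adjusted p from 0.0281 to 0.112 and from 0.0235 to 0.110. Pcdhga4 was not called without WT replicate 3, any 1 of the si mH2A1.1 samples or si mH2A1.2 replicate 1 or 3 (1.17 to 1.55). Pcdhga5 was not called without si mH2A1.1 replicate 1 or 3 or si mH2A1.2 replicate 2 or 3 (1.33 to 1.85). Of their stretches, 34.7% and 54.7% occur in no other gene. Pcdhgb8, annotated as a polymorphic pseudogene and so no member, was between 0.107 and 0.560 CPM.

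Beta genes have no constant exon, each being a single coding exon of its own, and the median share of stretches found in no other gene was 95.55%. The cluster summed to 86.3, 65.2 and 82.9 CPM in WT, 82.5, 108 and 92.6 in si mH2A1.1 and 138, 86.8 and 87.4 in si mH2A1.2. WT and si mH2A1.1 overlapped, as did the knockdowns, while the lowest si mH2A1.2 sample barely exceeded the highest WT sample. Further, si mH2A1.2 replicate 1 stood apart from the other 2 of its group. Reads came mostly from the far end of the cluster, where Pcdhb14 to Pcdhb22 held 88.5% of the beta reads in WT, 90.3% in si mH2A1.1 and 86.5% in si mH2A1.2. The highest levels per length were Pcdhb17 with 3.56 RPKM, Pcdhb16 with 2.91 and Pcdhb20 with 2.42, while Pcdhb1 had no count.

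**Figure D4:**
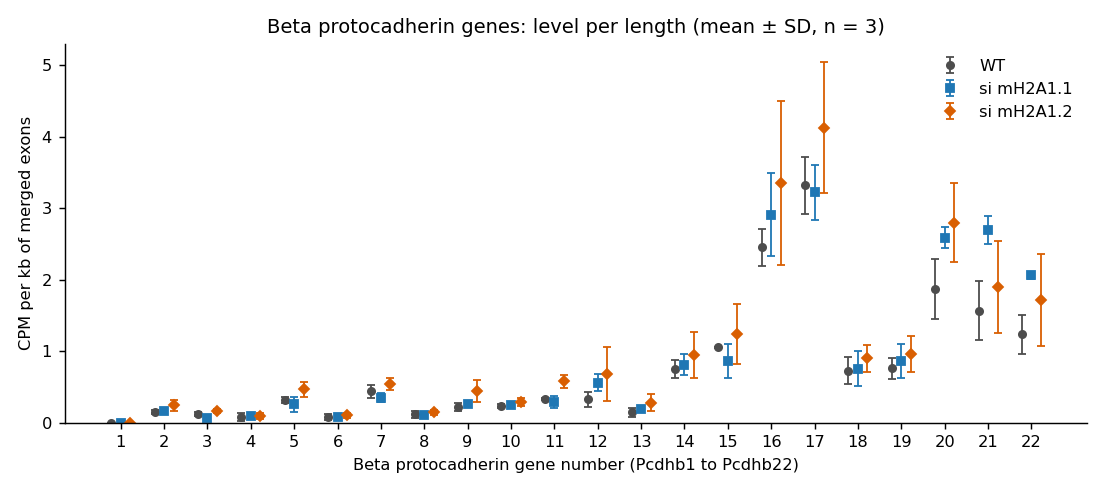
Level per length of the 22 beta protocadherin genes in numerical order (x axis), as CPM per kilobase of merged exons (y axis, from 0), with the mean ± SD of 3 samples in WT (grey), si mH2A1.1 (blue) and si mH2A1.2 (orange). Levels are low from Pcdhb1 to Pcdhb13 and higher from Pcdhb14 on, with Pcdhb17 the highest at a mean of 3.56.

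No beta gene was called against WT in either knockdown in the edgeR fit that set the calls, of all 9 samples without a block. With si mH2A1.1, 4 of 21 had an unadjusted p below 0.05, beside 5789 of all 19545 tested genes. DESeq2 called 2 and limma-voom 0, and edgeR called Pcdhb21 and Pcdhb22 with no filter on low counts or with the replicate block. With si mH2A1.2, DESeq2 and limma-voom called 0. With si mH2A1.2 all 21 tested beta genes had a positive log2 fold change, with a median of 0.34, beside 50% positive over all tested genes. Of the 21, 5 had an unadjusted p below 0.05, beside 3109 of all 19545 tested genes. Without si mH2A1.2 replicate 1, 18 of 21 were positive and the median was 0.13, and without WT replicate 1 it was 20 of 21. With si mH2A1.1, 14 were positive and the median was 0.11, which became -0.04 without si mH2A1.1 replicate 2. Pcdhb21 and Pcdhb22, neighbours at the end of the cluster, were above WT in all si mH2A1.1 samples. Pcdhb21 had 9.42, 5.57 and 7.12 CPM in WT and 11.8, 13.7 and 12.6 in si mH2A1.1 (log2 fold change 0.78, edgeR adjusted p = 0.0628). Pcdhb22 had 10.1, 6.56 and 7.89 CPM in WT and 13.5, 14.03 and 13.3 in si mH2A1.1 (0.74, adjusted p = 0.0742). They passed in 6 and 5 of 17 alternatives, with adjusted p from 0.0176 to 0.197 and from 0.0216 to 0.224.

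Pcdhb11 and Pcdhb3 were the beta genes called between the knockdowns, both lower in si mH2A1.1. They were 9.52% of the 21 tested beta genes, below the 22.5% called over all tested genes. Pcdhb11 had 1.53, 1.39 and 1.52 CPM in WT, 1.04, 1.73 and 1.11 in si mH2A1.1 and 3.00, 2.22 and 2.44 in si mH2A1.2. The si mH2A1.2 samples were above all others (direct log2 fold change -0.98, SE 0.24, edgeR adjusted p = 0.0168). Pcdhb3, with 8 to 28 counts a sample, had 0.535, 0.373 and 0.516 CPM in WT, 0.370, 0.198 and 0.230 in si mH2A1.1 and 0.633, 0.731 and 0.537 in si mH2A1.2. Its groups did not overlap in CPM, though the WT range nearly met that of each knockdown (direct log2 fold change -1.24, SE 0.33, adjusted p = 0.0233). In unscaled counts, si mH2A1.1 replicate 1 had 15 and WT replicate 2 had 14. Pcdhb11 was called in 15 and Pcdhb3 in 14 of 17 alternatives, with adjusted p from 0.0035 to 0.0646 and from 0.0207 to 0.0907, and neither was called without si mH2A1.1 replicate 3 (-0.88 and -1.15). Pcdhb11 was also lost without si mH2A1.1 replicate 1 (-0.85), and Pcdhb3 without si mH2A1.1 replicate 2 (-1.08) or si mH2A1.2 replicate 2 (-1.13).

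The alpha cluster was almost silent, with 1.32 ± 0.117 CPM over its 14 genes in WT, 1.79 ± 0.271 in si mH2A1.1 and 1.70 ± 0.680 in si mH2A1.2 (SD, n = 3 each). Only Pcdhac2 and Pcdha9 could be tested, and neither was called. Pcdhac2, the C-type gene at the end of the cluster, held the most reads, with a mean of 0.780 CPM.

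Cadherin tails act through catenins, and the 24 catenin and junction partner genes were all tested. With si mH2A1.1, 3 of the 24 were called, 12.5% against 11.1% of all tested genes, near the background. Ctnnb1, Psen2 and Nectin1 rose and none fell, and the count was 0 without WT replicate 2 and at most 1 without WT replicate 1 or 3, si mH2A1.1 replicate 1 or 3 or si mH2A1.2 replicate 2 or 3. Ctnnb1 (beta-catenin) had 473, 428 and 459 CPM in WT and 676, 645 and 643 in si mH2A1.1 (log2 fold change 0.53, SE 0.10, edgeR adjusted p = 0.0108), a call lost without WT replicate 2 (0.49, adjusted p = 0.0545). With si mH2A1.2 only Pkp3, at 0.485 CPM on average in WT, was called, as a fall, and not without WT replicate 1 or 2 or si mH2A1.2 replicate 1 or 2. Between the knockdowns 6 of the 24 were higher in si mH2A1.1 and none was lower, 25% called against 22.5% of all tested genes. The alpha-catenin Ctnna1 and the p120 catenin Ctnnd1, which had 686 and 320 CPM on average in WT, were not called.

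Of 29 other genes of the cadherin superfamily, 17 were tested. With si mH2A1.1, 8 of the 17 were called, against 11.1% of all tested genes. Celsr1, Ret, Clstn1, Fat2 and Fat1 rose, and Cdhr1, Dchs1 and Fat4 fell. With si mH2A1.2, Cdhr1, Fat4 and Fat1 rose, where 1.37% of all tested genes rose. Between the knockdowns 7 of the 17 were called, 4 higher and 3 lower in si mH2A1.1, against 22.5% of all tested genes. Leaving out WT replicate 2 or 3 reduced the first count to 1, and leaving out any WT sample or si mH2A1.2 replicate 1 or 2 reduced the second to 0. Fat4 and Dchs1 encode the giant cadherins that bind each other across cell contacts in planar polarity and Hippo signalling.

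Fat4 and Cdhr1 followed the order seen for Cdh11. Fat4 had 12.0, 16.7 and 17.6 CPM in WT, 5.78, 6.97 and 6.82 in si mH2A1.1 and 26.3, 23.8 and 26.7 in si mH2A1.2. It fell by 1.24 on the log2 scale with si mH2A1.1 (edgeR adjusted p = 0.0028) and rose by 0.73 with si mH2A1.2 (adjusted p = 0.0387, from 0.00071 to 0.106 over the alternatives). The rise was lost without any 1 WT or si mH2A1.2 sample or si mH2A1.1 replicate 3 (0.58 to 0.82). It was also lost in edgeR with only the samples of the 2 groups compared (0.74, adjusted p = 0.0554). Cdhr1 had 7.25, 7.19 and 5.03 CPM in WT, 1.85, 2.91 and 1.64 in si mH2A1.1 and 41.8, 22.2 and 13.5 in si mH2A1.2. Its log2 fold changes were -1.61 (adjusted p = 0.0297, from 0.00034 to 0.116) and 1.99 (adjusted p = 0.0280, from 4.5e-06 to 0.107). The first was lost with limma-voom (-1.63, adjusted p = 0.077) and without any 1 WT sample or si mH2A1.1 replicate 1 or 3 (-1.44 to -1.77), and the second without any 1 WT sample or si mH2A1.2 replicate 1 or 2 (1.45 to 2.09). In neither gene did any group overlap another. The myogenic cadherins left out of the family did not follow this order. Cdh15 had 329 ± 102 CPM in WT, 652 ± 119 in si mH2A1.1 and 393 ± 191 in si mH2A1.2. Cdh2 had 124 ± 27.7, 147 ± 19.3 and 158 ± 16.5 CPM in the same order (SD, n = 3 each). Neither was called (adjusted p = 0.0708 for Cdh15 with si mH2A1.1).

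Clustered protocadherin genes are known to be regulated by CTCF, cohesin, DNA methylation and repressive chromatin factors such as Setdb1 and Smchd1. Of 16 genes for such factors, Rad21 alone, a cohesin subunit, was called with si mH2A1.1 (6.25%, against 11.1% of all tested genes), lower at 209 CPM against 269 in WT, and none with si mH2A1.2, where 1 had an unadjusted p below 0.05 and 1 was called with the replicate block. The call of Rad21 was lost without any 1 WT sample, si mH2A1.1 replicate 1 or 3 or si mH2A1.2 replicate 2. Between the knockdowns Dnmt1 was higher in si mH2A1.1, and Dnmt3a and Nipbl were lower, 18.75% called against 22.5% of all tested genes, and none of the 16 was called without si mH2A1.1 replicate 1 or si mH2A1.2 replicate 2 or 3. Ctcf itself, at 56.6 CPM in WT, 66.1 in si mH2A1.1 and 59.7 in si mH2A1.2, was not called. Of the 5 tested repressors of classical cadherin genes, Snai1 alone fell with si mH2A1.1 (20% called, against 11.1%), from 22.4 to 11.6 CPM, and none was called with si mH2A1.2, where none had an unadjusted p below 0.05. The Snai1 call was lost with limma-voom and without WT replicate 2 or 3, any 1 si mH2A1.1 sample or si mH2A1.2 replicate 2.

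Other gene groups moved with the same samples. Of 12 interferon genes, 11 rose with si mH2A1.1, where 6.18% of all tested genes rose. The sum of the 12 was 36.4 to 44.2 CPM in WT, 174 to 685 in si mH2A1.1 and 34.1 to 55.0 in si mH2A1.2. The 6 markers of proliferating or reserve myoblasts were all called higher in si mH2A1.1 than in si mH2A1.2, against 12.0% of all tested genes. They summed to 273 to 433 CPM in WT, 401 to 756 in si mH2A1.1 and 217 to 307 in si mH2A1.2. Against WT, Myf5 fell with si mH2A1.2, though not without any 1 of the 9 samples. With si mH2A1.1 none of the 6 was called by edgeR, and DESeq2 called 2. There 4 of the 6 had an unadjusted p below 0.05, beside 5789 of all 19545 tested genes. The myotube gene Myog fell with si mH2A1.1 and Tnnt3 with si mH2A1.2. Their part in the cadherin results was not tested.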

How the data were processed

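Messenger RNA of 9 C2C12 samples was sequenced by the authors as single reads of 50 bp and quantified with Salmon on GRCm38 (mm10). The deposited values used are estimated counts per gene, as whole numbers without normalization. The annotation release and strandedness are not given in the sources used here. The table scaled by size factors was not used. Symbols, biotypes and exon lengths came from GENCODE M21.

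All genes were tested in R 4.3.3 with edgeR 4.0.16 (legacy quasi-likelihood, TMM, filterByExpr, 19545 genes) in 1 model of 9 samples without a block, and adjusted by Benjamini-Hochberg. Genes with an adjusted p of 0.05 or less were called. This edgeR test gives no SE, so each SE of a log2 fold change was derived as its absolute value divided by the square root of the F statistic. Members and gene lists were chosen with earlier results of these data known. Named members were those called or of at least 1 CPM on average. DESeq2 1.42.0, limma-voom (limma 3.58.1), other filters and scalings, the replicate block, a stricter rule and leaving out each sample were alternatives. Tests were checked on simulated data. The study describes independent biological replicates. Same-numbered WT and si mH2A1.2 samples deviated together from their group means (correlations 0.196 to 0.331). The mean between different numbers was -0.136. Deviations within a group cancel out, which ties this mean to the same-number values, so it is not a separate baseline. The deposited sample codes of same-numbered samples also carry consecutive numbers, and whether these were matched sets is not stated. Calls were nevertheless taken from the fit without a block, and the fit with the replicate number as a block served only as an alternative. Sequence shared between genes was read as the share of a gene's 50-base transcript stretches found in no other gene. Counting error limits the lowest genes.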

Additional observations from a re-analysis of the deposited data

How the results depend on the processing

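Cdh11 and Pcdh1 were called with si mH2A1.1 in all 17 alternative fits, and Cdh11, Pcdh1, Pcdh18, Pcdh19, Pcdhgc3 and Cdh10 in all 17 between the knockdowns. Members called with si mH2A1.1 were 3, but 6 with DESeq2, 6 with no filter on low counts, 8 with the replicate block and 2 to 6 when each sample was left out in turn (6 without si mH2A1.2 replicate 1). The added genes were Pcdh7, Pcdhb21 and Pcdhb22, and with the block also Cdh23 and Pcdh18. With si mH2A1.2 there were 2, against 1 to 2 when leaving out a sample and 3 with the block (Cdh10 added). Between the knockdowns there were 10, against 6 to 11 when leaving out a sample (6 without si mH2A1.1 replicate 3) and 14 with the block (Cdh19, Cdh23, Pcdh7 and Pcdhgc4 added). DESeq2 added Pcdhga6, Pcdhgc4 and Pcdhgc5 there, and no filter on low counts Pcdhga6 and Pcdhgc4. By the stricter rule 2, 0 and 5 members passed in the 3 comparisons. Pcdh1 with si mH2A1.2, -0.11, became 0.03 without WT replicate 1 and 0.00 without si mH2A1.2 replicate 3, in a range of -0.28 to 0.03. The causes were not tested. A tally was kept only for the called members and for Pcdh7, Pcdhb21, Pcdhb22, Fat4, Cdhr1, Ctnnb1 and H2afy. The stricter rule, which changes only the call, was counted as an alternative. Of these alternative values, 677 kept their sign and side of the threshold, 56 lost and 20 gained the call and 2 changed sign.

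Same-numbered samples correlated by 0.0841 to 0.0976 for si mH2A1.1 and WT and by 0.0917 to 0.116 for the knockdowns, and every sample correlated best with its own number. Over all genes the block moved the count called with si mH2A1.1 from 2171 to 4065, with si mH2A1.2 from 460 to 1005 and between the knockdowns from 4397 to 5674. DESeq2 called 3354 and 1113 genes against WT in the same order, no filter on low counts called 680 with si mH2A1.2, and leaving out a sample gave 605 to 2928, 74 to 544 and 2251 to 4616 in the 3 comparisons. Plain totals in place of TMM moved no cluster sum by as much as its SD, and levels per length, being another unit, were compared by rank only. Depth limits the least expressed genes.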
